A study of Sus scrofa with 12 samples.

Results

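Adrenomedullin and its receptor partners were followed during the endothelial differentiation of porcine iPS cells. The 5 genes are ADM, which encodes the peptide adrenomedullin, CALCRL, which encodes the calcitonin receptor-like receptor, and RAMP1, RAMP2 and RAMP3, which encode receptor activity-modifying proteins. They were found by their pig gene symbols, and all 5 of 5 were found among the 19681 genes of the FPKM tables. RAMP2 was chosen on its values, because it had been seen to be high at day 12, so its levels are given as a description with no test. FPKM scales fragments by transcript length and library size, so levels of different genes can be set beside each other.

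The series holds 12 libraries from 4 groups of cells, with 3 biological replicates (A, B and C) per group. AOC is the porcine endothelial cell line, which was not induced. IEC2, IEC4 and IEC12 are cells derived from porcine iPS cells and collected at day 2, day 4 and day 12 of the endothelial induction. Per the study's methods, cells on Matrigel received CHIR99021, an activator of Wnt signaling, up to the stage of IEC2, then BMP4, FGF2 and VEGF up to the stage of IEC4, and then endothelial growth medium with VEGF. IEC12 cells were not sorted for CD31, so they are a mixed culture, and AOC is 1 line. The sources used here do not say whether replicates came from separate cultures, so p-values measure the spread between these replicates. iPS cells before induction and the CD31-sorted cells are not analysed here.

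CALCRL is a receptor of the class B family of G protein-coupled receptors that reaches the cell surface only together with a RAMP. With RAMP1 it forms the receptor for calcitonin gene-related peptide, and with RAMP2 or RAMP3 it forms a receptor for adrenomedullin, which acts mainly through cAMP. ADM, CALCRL and RAMP2 are each required for normal vascular development in the mouse, and endothelial cells are a well-known site of their expression. The comparison of the 4 groups therefore asks at which stage the ligand, the receptor and a RAMP partner were present together.

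The results showed that the ligand and the receptor were present in all 12 libraries, while the RAMP partner was not. At a limit of 1 FPKM, CALCRL and RAMP2 were present together in 3 of 3 AOC libraries, 0 of 3 IEC2 libraries, 0 of 3 IEC4 libraries and 3 of 3 IEC12 libraries. CALCRL was never accompanied by RAMP1 or RAMP3 at this limit (0 of 12 libraries for each). ADM moved the other way to RAMP2 along the induction, with its highest IEC levels at day 2 and its lowest at day 12. Values from bulk RNA show presence in the same culture, not in the same cell, and fewer cells of a type cannot be told apart from less RNA per cell.

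**Figure D1:**
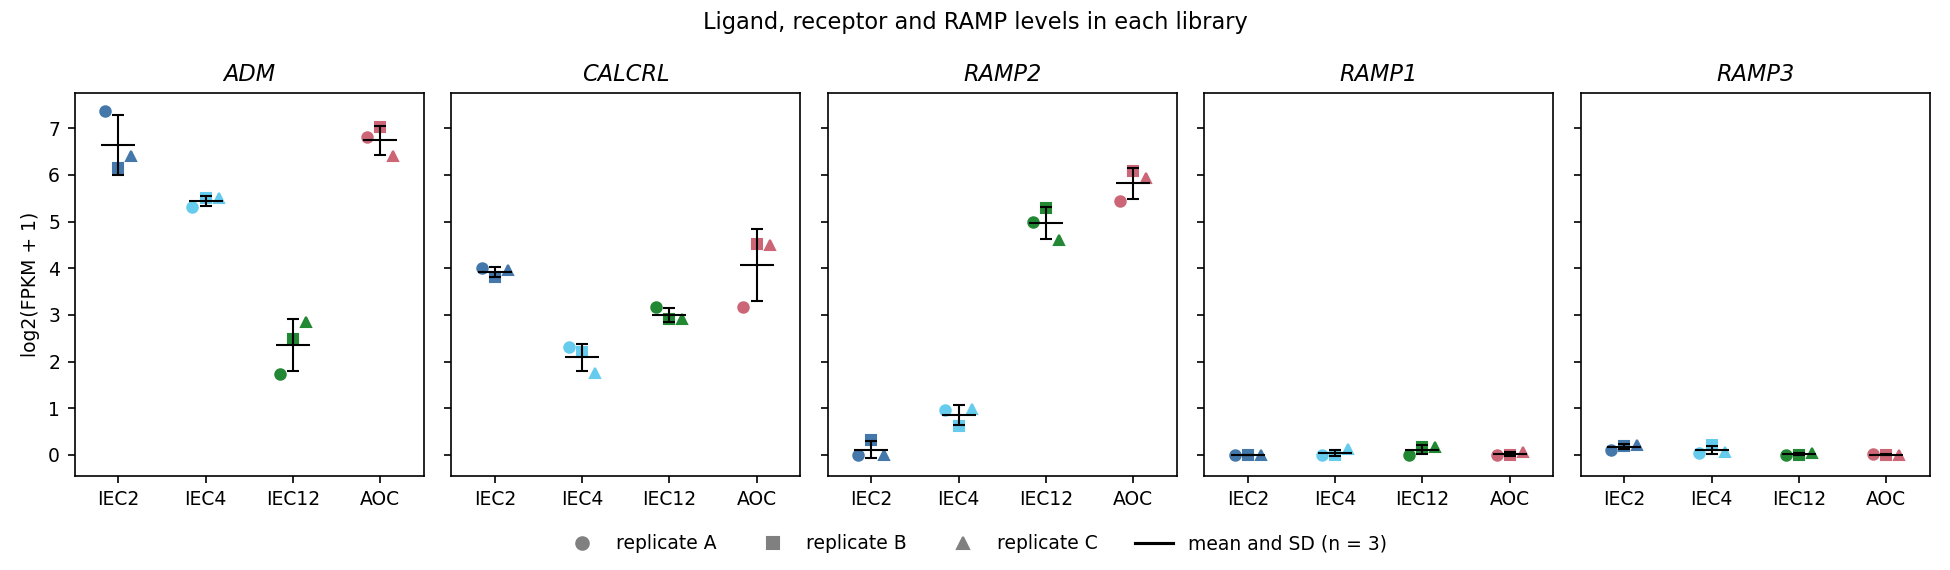
FPKM of ADM, CALCRL, RAMP2, RAMP1 and RAMP3, as log2(FPKM + 1), in each of the 12 libraries, grouped by cell stage, with points for replicates and a black line and bar for the mean and SD of 3 replicates. RAMP2 lies between 23.5 and 66.8 FPKM in IEC12 and AOC and below 1 FPKM in IEC2 and IEC4, ADM is lowest in IEC12, and RAMP1 and RAMP3 lie near 0 throughout.

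The endothelial label was checked before the members were compared. Of 24 endothelial markers, 19 were found, and they summed to 377 to 514 FPKM in AOC. The sum was 1.08 to 2.97 FPKM in IEC12, 4.75 to 7.55 in IEC4 and 5.82 to 9.93 in IEC2. CDH5, the cadherin of endothelial junctions, had a mean of 125 ± 18.7 FPKM in AOC (SD, n = 3) and was listed at 0 in all 9 IEC libraries. PECAM1, the gene of CD31, had a mean of 114 ± 20.3 FPKM in AOC and 0.062 ± 0.0429 FPKM in IEC12 (SD, n = 3). VWF was not found by symbol. The IEC12 libraries thus carry the label of endothelial induction with the RNA of PECAM1 and CDH5 at or near 0. They are called by their stage here. The paper, in contrast, reports that flow cytometry found part of the differentiated cells at this stage positive for CD31 protein. The RNA values and that protein measurement differ, and the reason was not tested. The libraries held 8357 to 10467 genes at 1 FPKM or more. The files hold no read counts, and the relative depth read from their low values ran from 0.649 in IEC12 replicate A to 1.19 in IEC4 replicate A. For some pairs of libraries these steps leave a factor of 2 open, so the place of IEC12 replicate A in this order is uncertain.

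The ligand is described first. ADM (ENSSSCG00000013408) lies on chr2:49229223-49231521 of Sscrofa11.1, as annotated by RefSeq. ADM was at 111, 129 and 83.5 FPKM in AOC replicates A, B and C. In IEC2 it was at 165, 70.2 and 83.8 FPKM. In IEC4 it was at 38.7, 44.5 and 44.6 FPKM. In IEC12 it was at 2.34, 4.56 and 6.18 FPKM. The 3 stages of induction did not overlap, every IEC12 library was below every other library, and AOC and IEC2 overlapped. IEC2 replicate A stood above the other two of its group.

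The mean ADM level went from 106 ± 51.2 FPKM in IEC2 through 42.6 ± 3.38 in IEC4 down to 4.36 ± 1.93 in IEC12, and AOC had 108 ± 23.0 FPKM (SD, n = 3). ADM was above 97.1% of all genes at day 2, 92.4% at day 4 and 69.4% at day 12. The IEC2 mean was 2.5 times the IEC4 mean, and the IEC4 mean was 9.77 times the IEC12 mean.

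Differences were tested with limma on log2(FPKM + 1) over all genes, and calls needed a Benjamini-Hochberg adjusted p under 0.05. ADM fell from IEC2 to IEC4 by 1.20 on the log2 scale (SE 0.338, limma adjusted p = 0.02). This call rests on few libraries, since it was lost without IEC4 replicate A (adjusted p = 0.0651), IEC4 replicate B (0.051) or IEC2 replicate A (0.0621), where the difference was -1.14, -1.23 and -0.84. ADM fell from IEC4 to IEC12 by 3.09 (SE 0.338, limma adjusted p = 0.000152), and from IEC2 to IEC12 by 4.29 (SE 0.338, limma adjusted p = 1.44e-05). Both of these falls kept their call without any single library.

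ADM in AOC was higher than in IEC12 by 4.39 on the log2 scale (SE 0.324, limma adjusted p = 3.59e-07) and higher than in IEC4 by 1.30 (SE 0.324, limma adjusted p = 0.00368). Its difference between AOC and IEC2 was 0.10 (SE 0.324, limma adjusted p = 0.802), with a 95% interval of -0.61 to 0.81. The endothelial line and the first induction stage thus had ligand levels that could not be told apart within this interval.

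The receptor followed another course. CALCRL (ENSSSCG00000016031) lies on chr15:92233264-92332459 of Sscrofa11.1. CALCRL was at 8.02, 22 and 21.6 FPKM in AOC replicates A, B and C. In IEC2 it was at 15.1, 13 and 14.5 FPKM. In IEC4 it was at 3.94, 3.64 and 2.38 FPKM. In IEC12 it was at 7.98, 6.58 and 6.47 FPKM. CALCRL was lowest at day 4, intermediate at day 12 and highest at day 2 among the induced cells, with no overlap between stages. AOC replicate A stood apart from the other two AOC libraries and was close to IEC12 replicate A.

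The mean CALCRL level was 14.2 ± 1.1 FPKM in IEC2, 3.32 ± 0.827 in IEC4 and 7.01 ± 0.842 in IEC12, with 17.2 ± 7.96 FPKM for AOC (SD, n = 3). CALCRL fell from IEC2 to IEC4 by 1.83 on the log2 scale (SE 0.186, limma adjusted p = 8.47e-05), which is a ratio of means of 4.28. It rose from IEC4 to IEC12 by 0.90 (SE 0.186, limma adjusted p = 0.00399), a ratio of means of 2.11. The rise did not bring it back to its first level, since it remained lower in IEC12 than in IEC2 by a difference of -0.93 (SE 0.186, limma adjusted p = 0.00323).

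CALCRL was higher in AOC than in IEC4 by 1.97 (SE 0.307, limma adjusted p = 0.000135) and higher than in IEC12 by 1.07 (SE 0.307, limma adjusted p = 0.0104). The latter call was lost without AOC replicate B (difference 0.84, adjusted p = 0.051). AOC and IEC2 differed by 0.14 (SE 0.307, limma adjusted p = 0.707), with a 95% interval of -0.53 to 0.81. Without AOC replicate A, the library with the low value, this difference was 0.59 and passed the threshold (adjusted p = 0.0203).

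These calls stand against many others in the same libraries. Lack of overlap between groups is given for the members as a description, since its share over all genes is not given. In IEC4 against IEC2, 24.8% of the genes tested were higher and 12.5% were lower, and both CALCRL and ADM were among the lower ones. In IEC12 against IEC4, 17.3% were higher, CALCRL among them, and 26.9% were lower, ADM among them. In IEC12 against IEC2, 24.2% were higher and 19.3% were lower, and both CALCRL and ADM were lower. In AOC, 26.7% of the genes tested were higher and 37.1% were lower than in IEC2, where neither gene was called. Against IEC4, 22.1% were higher and 47% were lower in AOC, and against IEC12, 22.4% were higher and 36.2% were lower, with both genes higher in AOC each time. The 3 comparisons with AOC share the AOC libraries.

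RAMP2 (ENSSSCG00000017389) lies on chr12:20092204-20094426 of Sscrofa11.1 and encodes the partner that makes CALCRL an adrenomedullin receptor. RAMP2 was at 42.4, 66.8 and 60.4 FPKM in AOC replicates A, B and C. In IEC2 it was at 0, 0.247 and 0 FPKM. In IEC4 it was at 0.934, 0.528 and 0.981 FPKM. In IEC12 it was at 31, 38.4 and 23.5 FPKM. No groups overlapped, and the order was AOC, IEC12, IEC4 and IEC2 from the highest to the lowest. All 3 IEC4 libraries lay under the limit of 1 FPKM, replicates A and C just under it, and at a limit of 0.5 FPKM CALCRL and RAMP2 counted as present together in 3 of 3 IEC4 libraries.

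The mean RAMP2 level was 0.0825 ± 0.143 FPKM in IEC2, 0.814 ± 0.249 in IEC4 and 30.9 ± 7.42 in IEC12, with 56.5 ± 12.7 FPKM for AOC (SD, n = 3). The IEC12 mean was 38 times the IEC4 mean and the AOC mean was 1.83 times the IEC12 mean. On the log2(FPKM + 1) scale the differences of means were 0.74 from IEC2 to IEC4, 4.12 from IEC4 to IEC12 and 0.85 from IEC12 to AOC. RAMP2 was above 45.8% of all genes in IEC4, 90.2% in IEC12 and 93.8% in AOC. It passed the filter on low values in the induction fit only through the 3 IEC12 libraries, the group in which it was high.

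The level of RAMP2 in IEC12 stood beside endothelial markers at or near 0. The 19 endothelial markers found summed to 1.08 to 2.97 FPKM in IEC12, with CDH5 listed at 0, while RAMP2 alone was 23.5 to 38.4 FPKM there. The 8 smooth muscle markers, all found, summed to 0.853 to 2.84 FPKM in IEC12 and 6.21 to 14.8 in IEC4. The 4 lymphatic endothelial markers summed to 0.341 to 0.418 FPKM in IEC12. The 10 neuronal markers, all found, summed to 73.9 to 96.2 FPKM at day 2, 47 to 51.9 at day 4 and 396 to 423 at day 12. The IEC12 sum was carried by STMN2, a microtubule regulator of growing axons, which was at 11.2 ± 3.56 FPKM in IEC4 and 381 ± 14.1 in IEC12 (SD, n = 3). Of the 5 neuronal markers tested, 2 rose and 3 fell from IEC4 to IEC12, beside 17.3% higher and 26.9% lower over all genes tested, and SNAP25, a synaptic protein gene, fell by 1.70 (limma adjusted p = 0.000176). In AOC, where RAMP2 was highest, the neuronal sum was 7.18 to 10.7 FPKM. Epithelial markers went the other way, with 7 of 8 found and a sum of 531 to 1510 FPKM in IEC4 and 42.3 to 87.1 in IEC12. The 9 fibroblast and stromal markers found of 10 summed to 48.9 to 59.5 FPKM in IEC4 and 62.6 to 81.5 in IEC12, mostly COL3A1. The 8 blood cell markers summed to 3.49 to 5.36 FPKM in IEC12 and 5.31 to 9.28 in IEC4, with PTPRC, the pan-leukocyte marker, at 1.37 ± 0.242 FPKM in IEC12 (SD, n = 3). Of 8 pluripotency markers only NANOG and LIN28A were found, with a sum of at most 0.155 FPKM in IEC2, 3.3 to 6.39 in IEC4 and at most 1.52 in IEC12. The part of these cell types in the levels of RAMP2, ADM and CALCRL was not tested.

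**Figure D2:**
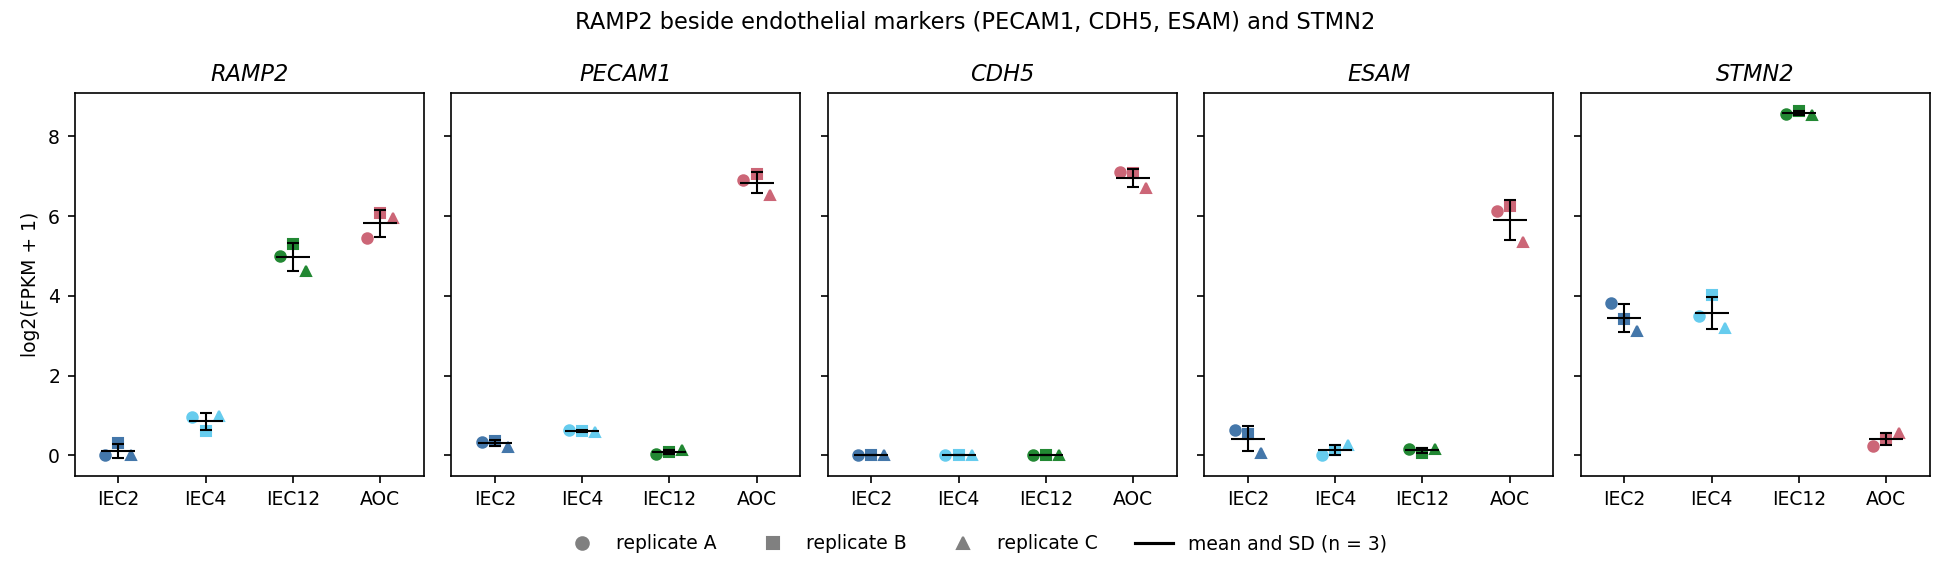
RAMP2, the endothelial markers PECAM1, CDH5 and ESAM, and the neuronal marker STMN2, as log2(FPKM + 1), in each of the 12 libraries, with points for replicates and a black line and bar for the mean and SD of 3 replicates. RAMP2 is high in both AOC and IEC12, the endothelial markers are high in AOC alone, and STMN2 is highest in IEC12.

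RAMP1 and RAMP3 stayed below 1 FPKM in every library, and they contributed little to the RAMP pool in AOC and IEC12. RAMP1 (ENSSSCG00000016331, chr15:137490440-137535555) encodes the partner for the calcitonin gene-related peptide receptor and was listed at 0 in 8 of 12 libraries, with a highest value of 0.128 FPKM in IEC12 replicate C. RAMP3 (ENSSSCG00000031144, chr18:50319795-50366757) encodes the other adrenomedullin partner and was listed at 0 in 4 of 12 libraries, with a highest value of 0.151 FPKM in IEC4 replicate B. The RefSeq position of RAMP3 overlaps that of WAP, and reads of overlapping genes cannot be told apart without strand. Neither gene passed the filter on low values. Once scaled by relative depth, their values sat on whole multiples of a smallest step, at 1 step, 2 steps and, in 2 libraries, 3 steps for RAMP1, and at up to 22.01 steps for RAMP3, whereas the low values of RAMP2 in IEC4 did not (4.28, 2.29 and 3.71 times its IEC2 replicate B value).

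RAMP3 had its higher values at the first stages, where RAMP2 was low. RAMP3 was at 0.0809, 0.147 and 0.149 FPKM in IEC2 and at 0.0324, 0.151 and 0.0471 FPKM in IEC4. In IEC12 it was at 0, 0 and 0.0306 FPKM, and in AOC at 0.00891, 0 and 0 FPKM. IEC2 thus did not overlap with IEC12 or AOC, although every value was far below 1 FPKM. When limma was run with no filter, RAMP3 was lower in IEC12 than in IEC2 by a difference of -0.16 (SE 0.0474, adjusted p = 0.0474) and lower in AOC than in IEC2 by -0.17 (SE 0.0414, adjusted p = 0.0082). RAMP1 passed in none of the 6 comparisons, with adjusted p between 0.18 and 0.834.

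The make-up of the RAMP pool was compared in each library, as a description. RAMP2 made up 99.9% to 100% of the summed RAMP FPKM in AOC and 99.3% to 100% in IEC12. In IEC4 it made up 96.6%, 77.7% and 87.9% in replicates A, B and C. In IEC2 it made up 0%, 62.7% and 0%, and the rest was RAMP3, but the whole pool was only 0.0809 to 0.395 FPKM there.

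RAMP2 and CALCRL exchanged places as the scarcer partner. RAMP2 was 5.28, 3.03 and 2.8 times CALCRL in AOC replicates A, B and C, and 3.88, 5.83 and 3.64 times CALCRL in IEC12. In IEC4 the ratio was 0.237, 0.145 and 0.412, and in IEC2 it was 0, 0.0191 and 0. RAMP2 thus exceeded CALCRL in every AOC and IEC12 library and was below it in every IEC2 and IEC4 library, and the ratios of AOC and IEC12 overlapped. A ratio of transcripts is not a ratio of proteins at the cell surface.

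The balance of ligand to receptor also separated IEC12 from the other groups. ADM was 13.9, 5.86 and 3.87 times CALCRL in AOC, 10.9, 5.41 and 5.79 times in IEC2 and 9.82, 12.2 and 18.7 times in IEC4. In IEC12 the ratio was 0.293, 0.693 and 0.955. ADM exceeded CALCRL in all 9 libraries of the other groups and was below it in all 3 IEC12 libraries. The ligand, the receptor and RAMP2 were each at 5 FPKM or more together in 3 of 3 AOC libraries and in 1 of 3 IEC12 libraries, replicate C, since ADM was under this limit in replicates A and B.

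**Figure D3:**
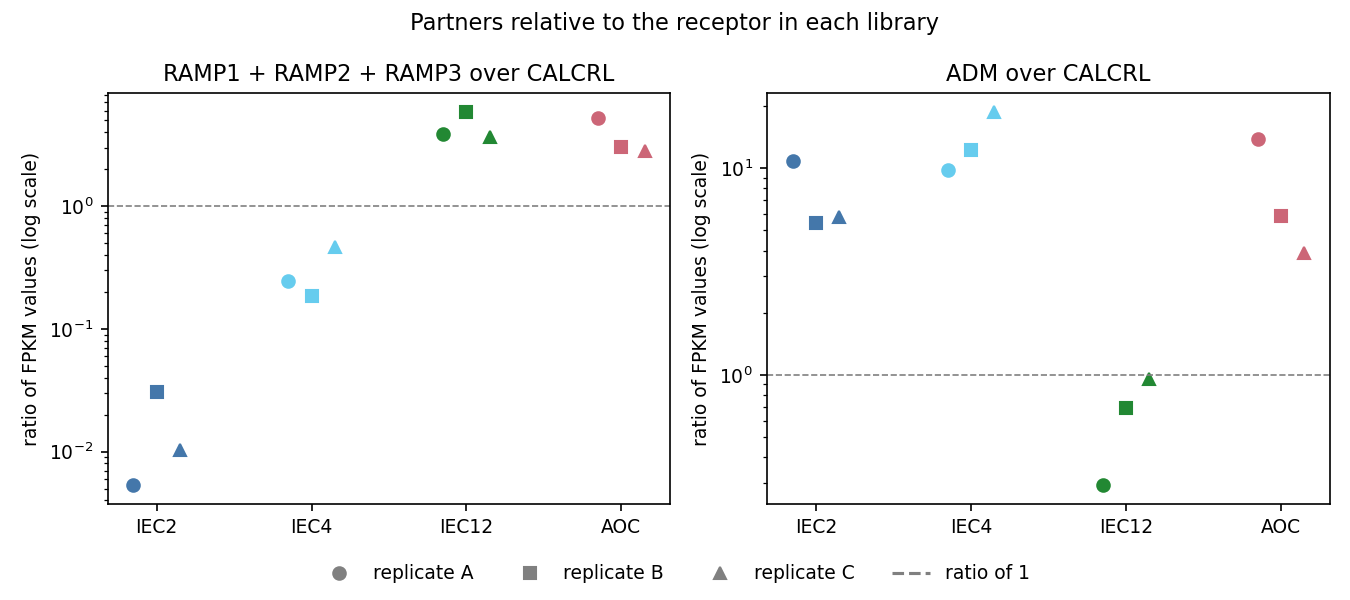
Ratio of the summed RAMP FPKM to CALCRL FPKM (left) and of ADM FPKM to CALCRL FPKM (right) in each of the 12 libraries, on log axes, with 1 point per replicate and a dashed line at a ratio of 1. The RAMP ratio lies above 1 in IEC12 and AOC and below 1 in IEC2 and IEC4, while the ADM ratio lies below 1 in IEC12 alone.

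Pairs of members were also set beside each other across libraries. Across the 9 IEC libraries Pearson's r of log2(FPKM + 1) was -0.97 between RAMP2 and ADM, -0.15 between RAMP2 and CALCRL and 0.26 between CALCRL and ADM. Across all 12 libraries the values were -0.33, 0.29 and 0.42. The IEC libraries form 3 stage clusters, so these values describe the order of the stages.

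The genes whose pattern was most like each member over the 12 libraries were listed by Pearson's r among genes with a symbol that passed the filter. These lists depend on the measure, since Spearman's rho kept 0, 0 and 1 of the 5 genes for RAMP2, CALCRL and ADM, and the 9 IEC libraries alone kept 1, 0 and 0. For RAMP2 they were HSPA8 (r = 0.990), TPD52 (0.989), RPL7L1 (0.986), RAB2A (0.984) and RDH11 (0.984). These genes were not near 0 at the early stages, since HSPA8, a chaperone gene, had means of 369 FPKM in IEC2, 430 in IEC4, 673 in IEC12 and 823 in AOC, so they share the order of RAMP2 and not its range. For CALCRL they were PTGR3 (0.921), STK17A (0.914), UBXN8 (0.913), RGCC (0.902) and CLDND1 (0.901). For ADM they were RIT1 (0.980), TPM4 (0.977), RCAN1 (0.967), TNFRSF12A (0.967) and SHISA5 (0.964). TNFRSF12A, the receptor of the cytokine TWEAK, had means of 545, 316 and 76.8 FPKM in IEC2, IEC4 and IEC12 and 501 in AOC.

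Other genes of the pathway were taken from 8 lists with 70 genes, of which 61 were found by symbol. None of the 5 other peptides of the calcitonin family (ADM2, ADM5, CALCA, CALCB and IAPP) was found by symbol. Among other receptors, CALCR, the calcitonin receptor, which also pairs with RAMPs, had means of at most 0.0611 FPKM. ACKR3, a receptor that takes up and removes adrenomedullin, was at 8.17, 10.7 and 12.5 FPKM in IEC2, at 9.76, 15.4 and 9.86 FPKM in IEC4, at 0.447, 1.66 and 1.63 FPKM in IEC12 and at 3.87, 3.83 and 3.25 FPKM in AOC. It fell from IEC4 to IEC12 by 2.52 on the log2 scale (limma adjusted p = 0.00018), the step in which ADM also fell, and was higher in AOC than in IEC12 by 1.10 (limma adjusted p = 0.00314). The 10 further receptors reported to pair with RAMPs were all found and none passed the filter. The highest means among them were those of GCGR, the glucagon receptor, at 0.816 ± 0.317 FPKM, and PTH2R, a parathyroid hormone receptor, at 0.625 ± 0.246 FPKM, both in IEC12 (SD, n = 3).

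Genes that process or clear the peptide changed in both directions. Of 7 found and 6 tested, 3 rose and 3 fell from IEC2 to IEC4, again 3 rose and 3 fell from IEC4 to IEC12, and 0 were called between IEC12 and IEC2 (the medians of the list were 0.00, 0.09 and -0.16, beside 0.20, -0.15 and 0.03 over all genes tested). Over all genes, 24.8% were higher and 12.5% lower in the first step, 17.3% and 26.9% in the second, and 24.2% and 19.3% in IEC12 against IEC2. FURIN passed the filter only through the 3 IEC4 libraries. Its rise into IEC4 and its fall after it were set by the filter, so the counts of both steps, which include it, are a description. In IEC12 against IEC2, 1 gene of the list had an unadjusted p under 0.05. With either other scaling ECE1 was lower there (adjusted p = 0.0381 and 0.035), as it was with the replicate letter as a block (0.0193). Some calls of the first step rest on few libraries, since PAM lost its call without IEC4 replicate A (adjusted p = 0.0511) or IEC2 replicate C (0.0524), CPE without IEC4 replicate A (0.0644) or IEC2 replicate B (0.0649), and IDE without IEC4 replicate B (0.0535). PAM, the enzyme that amidates adrenomedullin to its active form, was at 96.7 ± 17.4 FPKM in IEC2, 61.3 ± 8.9 in IEC4, 118 ± 14.1 in IEC12 and 9.28 ± 2.72 in AOC (SD, n = 3). PAM rose from IEC4 to IEC12 by 0.93 (limma adjusted p = 0.002), the step in which ADM fell, and was lower in AOC than in IEC12 by a difference of -3.56 (limma adjusted p = 2.79e-08).

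MME, the membrane peptidase neprilysin, was also lowest at day 4 among the induced cells. MME was at 30, 27.2 and 32.8 FPKM in IEC2, 7.04, 6.13 and 11.3 in IEC4 and 25.7, 24.6 and 26.9 in IEC12, and it was listed at 0 in all 3 AOC libraries. It fell from IEC2 to IEC4 by 1.80 (limma adjusted p = 0.000138) and rose from IEC4 to IEC12 by 1.58 (limma adjusted p = 0.000317). ECE1, an endothelin-converting peptidase, and IDE, the insulin-degrading enzyme, went the opposite way. ECE1 rose by 1.49 from IEC2 to IEC4 (limma adjusted p = 0.00283) and fell by 2.17 from IEC4 to IEC12 (limma adjusted p = 0.000376). IDE was at 11.6 ± 0.858, 21.6 ± 5.14 and 9.31 ± 2.08 FPKM at the 3 stages (SD, n = 3). In AOC, CPE, a carboxypeptidase of peptide hormone processing, was at 0.163 ± 0.0909 FPKM against 11.2 ± 2.17 in IEC12 (SD, n = 3), a difference of -3.38 (limma adjusted p = 3e-08).

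**Figure D4:**
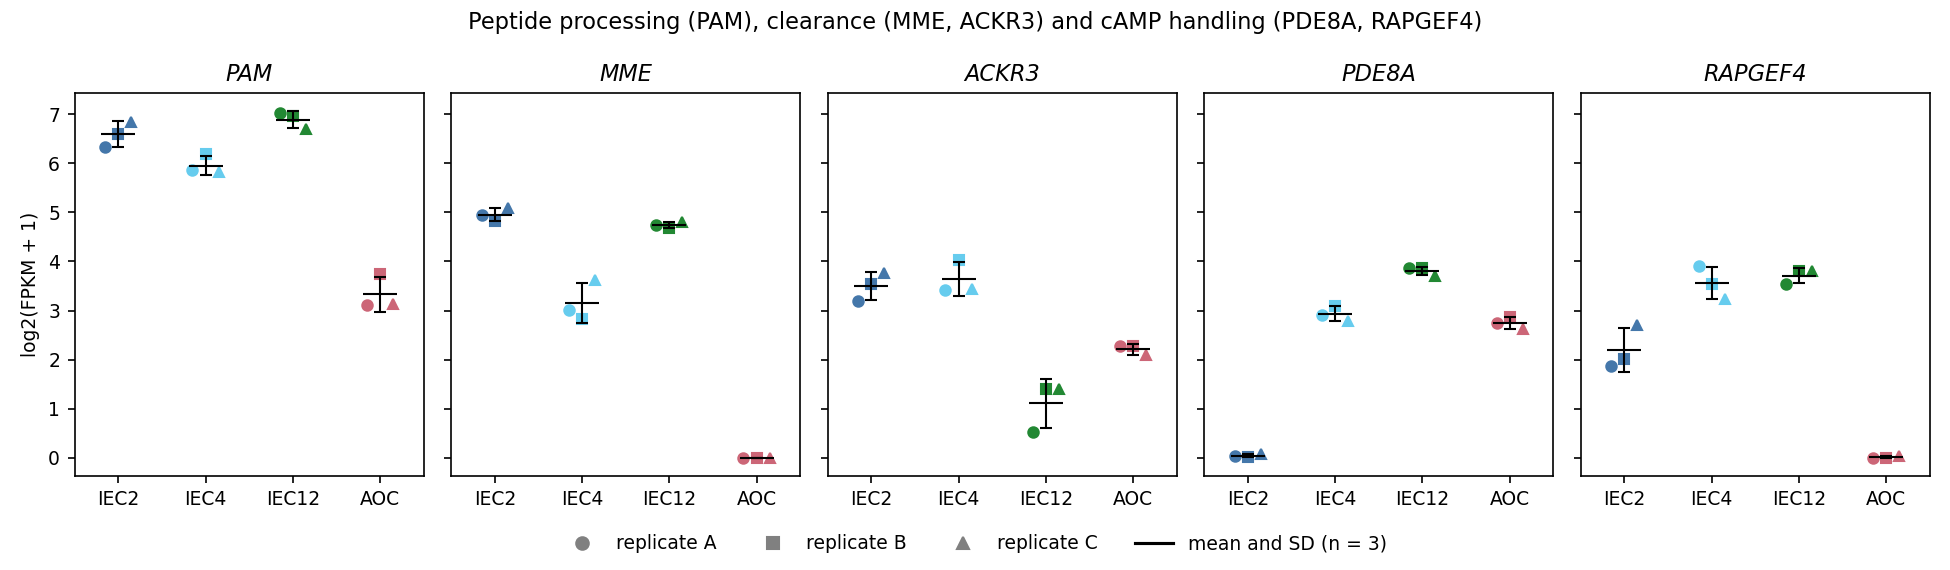
PAM, MME, ACKR3, PDE8A and RAPGEF4, as log2(FPKM + 1), in each of the 12 libraries, with points for replicates and a black line and bar for the mean and SD of 3 replicates. MME is lower in IEC4 than in IEC2 and IEC12 and is listed at 0 in AOC, ACKR3 is lowest in IEC12, and PDE8A is near 0 in IEC2 alone.

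Downstream of the receptor, GNAS, the gene of the Gs protein, was not found by symbol, so the G protein step was not seen. The adenylyl cyclases were low. Of 9 found, 1 passed the filter in the IEC libraries, ADCY9, with limma adjusted p of 0.244, 0.121 and 0.725 in the 3 comparisons of stages. ADCY7 was at 2.94 ± 0.479 FPKM in AOC against 0.259 ± 0.103 in IEC12, and ADCY4 was at 1.63 ± 0.405 FPKM in AOC against 0.0351 ± 0.0314 in IEC12 (SD, n = 3). Both passed the filter only through the AOC libraries, so these levels are given as a description. ADCY9 was lower in AOC than in IEC4, at 0.508 ± 0.208 against 2.31 ± 1.32 FPKM (SD, n = 3), a difference of -1.08 (limma adjusted p = 0.00851).

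The cAMP phosphodiesterases break down cAMP. Of 10 found, 7 passed the filter, and 6 of these were higher and 0 lower in IEC12 than in IEC2, where 24.2% of all genes tested were higher. PDE7B passed the filter only through the 3 IEC12 libraries, and PDE3A, PDE4B and PDE8A passed it with no IEC2 library at 1 FPKM, so the count is a description. PDE4D and PDE7A, which reached 1 FPKM in IEC2 libraries as well, were higher by 0.60 (limma adjusted p = 0.0255) and 1.08 (limma adjusted p = 0.00858). PDE4D lost its call with either other scaling, and without IEC12 replicate A (adjusted p = 0.065), IEC2 replicate A (0.0503), IEC2 replicate B (0.0521) or IEC2 replicate C (0.0793). PDE8A was at 0.0345 ± 0.019 FPKM in IEC2, 6.69 ± 0.821 in IEC4 and 13.1 ± 0.796 in IEC12 (SD, n = 3). PDE3A, which hydrolyses cAMP in vascular cells, was at 0.298 ± 0.358 FPKM in IEC2 and 4.7 ± 0.272 in IEC12, and PDE4B at 0.0494 ± 0.0745 and 2 ± 0.779 (SD, n = 3).

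The cAMP effectors were mixed. In IEC12 against IEC2, 3 of 10 tested were higher and 4 were lower (median -0.32), beside 24.2% higher and 19.3% lower over all genes tested, with 1 higher and 4 lower under median-of-ratios scaling and 1 higher and 5 lower under equal totals. RAP1B and PRKAR2A, the calls lost under both scalings, were each also lost in 5 of the 6 fits that left out 1 IEC12 or IEC2 library (limma adjusted p between 0.0575 and 0.149). RAPGEF4, a cAMP-activated exchange factor for RAP proteins, was higher in IEC12 by 1.51 (limma adjusted p = 0.00112), and was at 12.1 ± 1.37 FPKM in IEC12 against 0.00915 ± 0.0159 in AOC (SD, n = 3). ATF1, a transcription factor of the CREB family, was lower in IEC12 than in IEC2 by a difference of -1.26 (limma adjusted p = 0.000238). PRKAR1A, a regulatory subunit of protein kinase A, had means between 62.2 and 80.8 FPKM and was called in none of the 6 comparisons. Other scalings called it lower in IEC12 than in IEC4 (equal totals, adjusted p = 0.0414), lower in AOC than in IEC4 (equal totals, 0.0366) and higher in AOC than in IEC12 (median-of-ratios, 0.0159), and it was also called lower in IEC12 than in IEC4 without IEC12 replicate C (0.0218). RAP1A, a small GTPase downstream of RAPGEF proteins, was lowest at day 4 among the induced cells too, with a fall of 1.41 from IEC2 to IEC4 (limma adjusted p = 7.33e-05) and a rise of 0.71 from IEC4 to IEC12 (limma adjusted p = 0.00308).

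Of the 10 receptor desensitisation and trafficking genes found, 8 were tested, of which 3 rose and 0 fell from IEC2 to IEC4 (median 0.40), and 0 rose and 2 fell from IEC4 to IEC12 (median -0.37). Over all genes, 24.8% were higher and 12.5% lower in the first step (median 0.20), and 17.3% and 26.9% in the second (median -0.15), so these counts are near the background. In IEC12 against IEC2, 2 were higher and 1 was lower, beside 24.2% and 19.3% over all genes. Of these 3, RAB5A and GRK2 both lost their calls without IEC12 replicate A (adjusted p = 0.0544 and 0.0597) or IEC2 replicate B (0.0526 and 0.0602), and RAB5A with either other scaling (0.0708 and 0.341). RAB5A also lost its call without IEC12 replicate B (0.0764) or IEC2 replicate A (0.068), and GRK2 without IEC2 replicate C (0.0523). With either other scaling 2 rose in the first step, and in the later step 1 fell with median-of-ratios scaling and 4 fell with equal totals. NHERF1, a scaffold protein that binds RAMP3, was at 4.94 ± 2.56, 30.8 ± 3.69 and 7.33 ± 6.38 FPKM in IEC2, IEC4 and IEC12 (SD, n = 3). Its rise of 2.53 (limma adjusted p = 0.0143) was lost without IEC2 replicate A (adjusted p = 0.0587), and its fall of 2.38 (limma adjusted p = 0.0164) was lost without IEC4 replicate A (adjusted p = 0.0533). GRK2, the other gene that fell from IEC4 to IEC12, lost that call without IEC12 replicate A (limma adjusted p = 0.0602) or IEC4 replicate B (0.0575). In AOC against IEC4, 0 were higher and 4 were lower, beside 22.1% and 47% over all genes, but with median-of-ratios scaling 3 were higher and 0 were lower, so no direction is given for this list.

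ADM is a well-known target of the hypoxia response, and a list of other such targets was set beside it. Of 9 tested of 12 listed, 1 rose and 4 fell from IEC4 to IEC12 (median -0.44, beside -0.15 over all genes tested, of which 17.3% were higher and 26.9% lower). EGLN1, another oxygen-sensing hydroxylase, rose by 0.62 (limma adjusted p = 0.0112), a call lost without IEC12 replicate B (adjusted p = 0.0531). The 4 that fell were NDRG1 by 3.44 (limma adjusted p = 4.88e-06), EGLN3, an oxygen-sensing hydroxylase, by 2.47 (limma adjusted p = 2.63e-05), VEGFA by 1.66 (limma adjusted p = 0.000436) and PFKFB3. LDHA, the most abundant of the list, was at 1830 ± 294 FPKM in IEC4 and 2230 ± 258 in IEC12 (SD, n = 3) and was not called in this step (adjusted p = 0.203). From IEC2 to IEC4, 2 rose and 3 fell, beside 24.8% and 12.5% over all genes. The 3 that fell were ANKRD37, PDK1 and LDHA, and these calls were weak. ANKRD37 passed the filter only through the IEC2 libraries, where it was high, so its fall is given as a description. ANKRD37 and PDK1 were lost without IEC4 replicate A (adjusted p = 0.0727 and 0.0509) and PDK1 also without IEC2 replicate B (0.0586). LDHA was lost without IEC4 replicate B (0.115), IEC4 replicate C (0.132), IEC2 replicate A (0.134) or IEC2 replicate B (0.0728), and with no filter (0.125). In IEC12 against IEC2, 1 was higher and 6 were lower, beside 24.2% and 19.3%. The 6 include ANKRD37, so this count is a description. ANKRD37 also lost this call without IEC12 replicate A, B or C (limma adjusted p = 0.0733, 0.0681 and 0.0852). In AOC EGLN3 was at 0.0126 ± 0.0218 FPKM and VEGFA at 0.279 ± 0.0591 FPKM (SD, n = 3), and 7 of 9 targets were lower than in IEC2, beside 37.1% of all genes tested. These 7 include ANKRD37 as well, so that count is also a description. ADM itself was not called between AOC and IEC2. The part of hypoxia in the level of ADM was not tested.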

How the data were processed

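RNA from 12 libraries was sequenced, 3 biological replicates each of AOC, IEC2, IEC4 and IEC12. Per the labels, total RNA was amplified by Smart-Seq2 and libraries were made with a SMARTER kit. The submitters' processing notes name Bowtie2 2.2.3, TopHat2 2.0.12, Cufflinks 2.2.1 and susScr11, without their role or order. The authors deposited 1 FPKM value per gene and library. FPKM values divide out depth, and amplification adds noise for low genes, so only relative depth could be read from the steps of low values (77.9% of 2170 low values lay within 0.06 of a whole step, where 12% would if evenly spread). The annotation release is not given in the sources used here. Replicates correlated at 0.968 to 0.993 within groups (12 pairs, log2(FPKM + 1)).

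Symbols were matched for 13998 of 19681 identifiers through a gene name table, and positions were taken from RefSeq (Sscrofa11.1, the same assembly as susScr11). Of 162 list genes other than the 5 members, 137 were found by symbol.

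limma 3.58.1 (R 4.3.3; lmFit, contrasts.fit, eBayes with trend = TRUE) was run on log2(FPKM + 1) for genes with at least 1 FPKM in at least 3 libraries of the fit. Stages were compared in the 9 IEC libraries (10542 genes) and AOC with each stage in all 12 (11053 genes). Fold changes on this scale understate those of low genes. P-values were adjusted by Benjamini-Hochberg over all genes tested. The fit was tested on simulated data with independent normal errors and the same spread in every group of a gene. Stepped low values and unequal spread between groups were not simulated. RAMP2 received no test. Python 3.11.15 served for ranges and ratios (pandas 2.3.3, NumPy 2.4.6, and SciPy 1.17.1 for intervals) and matplotlib 3.10.9 for figures.

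The members and lists were chosen with earlier results of these data known. The rule for named genes took all 5 members, the 3 largest called changes and the 2 highest means in each pathway list, the 3 highest markers of each marker list with its defining markers, and the 5 genes most like each member. Some genes under this rule are covered only by the counts of their lists. Alternatives changed the pseudocount, filter, libraries in the fit, scaling, variance trend, call limits, replicate block, presence limit and measure of likeness, and left out each replicate.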

Additional observations from a re-analysis of the deposited data

How the results depend on the processing

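In no alternative did a called difference of CALCRL or ADM change direction. With the limits of the study (p and adjusted p under 0.001, log2 change beyond 3 either way), CALCRL lost its calls (-1.83 in IEC4 against IEC2, 0.90 in IEC12 against IEC4, -0.93 in IEC12 against IEC2, 1.97 in AOC against IEC4 and 1.07 in AOC against IEC12), as did ADM in IEC4 against IEC2 (-1.20) and in AOC against IEC4 (1.30). The number of pathway genes called then went to 0, 0, 1, 4, 2 and 4 in IEC4 against IEC2, IEC12 against IEC4, IEC12 against IEC2 and AOC against IEC2, IEC4 and IEC12, from 17, 17 and 17 of 33 tested and 30, 26 and 19 of 37 tested; these limits change both p and size. The main shares were 51.5%, 51.5%, 51.5%, 81.1%, 70.3% and 51.4%, beside 37.3%, 44.2%, 43.6%, 63.8%, 69.1% and 58.5% of all genes called. The pathway genes tested include FURIN, PDE7B, ADCY4, ADCY7 and DPP4, which passed the filter only through the group where they were high. All counts and shares of pathway genes called are therefore a description. Leaving out 1 replicate at a time gave CALCRL differences of -0.09 to 0.59 in AOC against IEC2 and 0.84 to 1.51 in AOC against IEC12, and ADM differences of -1.45 to -0.84 in IEC4 against IEC2. With a pseudocount of 0.1, the RAMP2 differences became 2.55, 5.10 and 7.65 for IEC4 against IEC2, IEC12 against IEC4 and IEC12 against IEC2, and 8.52 and 5.97 for AOC against IEC2 and IEC4, since low values weigh more. With median-of-ratios scaling the RAMP2 difference of AOC against IEC4 was 5.32.

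Scaling shifted the median of all genes tested, in AOC against IEC4 from -0.45 to -0.02 with median-of-ratios scaling and to -0.65 with equal totals, and the calls of CALCRL and ADM held under both. Replicate letters showed no clear pairing of the libraries. Deviations of same-letter libraries correlated at -0.514 to 0.246 and not above 0.1 in every pair of any comparison. In AOC against IEC4 all 3 libraries correlated best with their own letter, though only at 0.0221 to 0.0843. This held for 2 libraries in IEC12 against IEC2 and for 0 in each other comparison. With the letter as a replicate block, 17, 19 and 17 of 33 and 30, 26 and 20 of 37 pathway genes were called, and no call of CALCRL or ADM changed. Depth limits RAMP1 and RAMP3, whose values are near 0, and p-values rest on 3 replicates per group.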
